A study of Mus musculus with 12 samples.

Results

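The regions described are places where Ikaros was listed in resting macrophages and where RelA was listed at no time in the same wild-type series. Ikaros is a zinc finger DNA-binding protein encoded by Ikzf1, best known from lymphocyte development, where it works with chromatin remodelling complexes at both active and silent genes. RelA is a DNA-binding subunit of NF-kB, which is held in the cytoplasm of resting cells by inhibitor proteins and enters the nucleus once lipopolysaccharide (LPS), the endotoxin of Gram-negative bacteria, is sensed through Toll-like receptor 4. A hotspot is a stretch of the genome enriched for sequence tags in a single chromatin immunoprecipitation library. The regions were chosen by 2 measured readouts, the presence of an Ikaros hotspot at 0 h and the absence of RelA and input hotspots. Of the 904 Ikaros hotspots deposited for unstimulated cells, 51 overlapped a hotspot of input DNA by 1 bp or more and 853 did not. Of these 853, 573 overlapped no RelA hotspot at 0, 3 or 8 h, 67.2% (95% exact Clopper-Pearson interval 63.9 to 70.3), and the other 280 overlapped at least 1.

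All libraries came from bone-marrow-derived macrophages, primary cells grown from the marrow of C57BL/6J mice. The groups were Ikaros at 0, 3 and 8 h of LPS in wild-type cells, RelA at the same times in wild-type cells, RelA at the same times in cells labelled littermate control, and untreated wild-type input. Each group held 1 library, so no spread between replicates can be given and conditions are compared without p-values. Every interval is a 95% interval for counting error over regions, which are not fully independent. Of the 12 samples in the labels, 10 had a file, and the inputs of littermate and Ikzf KO cells were not analysed here. The file name of the Ikaros library labelled 0 h gives 3 h, as does that of the wild-type RelA library labelled 0 h, and those of the 8 h libraries of both factors in wild-type cells give 3 h beside 8 h. The littermate RelA libraries labelled 3 and 8 h also carry another time in the file name. The labels were used, and every statement on time rests on them. The numbers of reads were not given, so depth is unknown, and a region not listed may have lain under the threshold of that library.

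After input was set aside, the Ikaros lists of 0, 3 and 8 h counted 853, 7109 and 13796 hotspots, with lowest z scores of 9.90, 9.82 and 9.75. The wild-type RelA lists as deposited held 83, 5017 and 1890 hotspots. Absence of RelA therefore rests mainly on the 3 h list. Of the 280 regions with RelA, 275 overlapped a RelA hotspot at 3 h, 120 at 8 h and 17 at 0 h. The rule used Ikaros at 0 h and RelA at all times. Ikaros at 3 and 8 h and the littermate RelA lists were not used by it. At the edge of the rule, the nearest miss was a region at chr2:145713690-145714235 (mm9, as are all positions), which lay 1 bp from a RelA hotspot of 3 h, and the smallest overlap that removed a region was 40 bp, at chr15:78088802-78089115. Such borderline cases were few, since in the 280 the overlap had a median of 431 bp and a median of 100% of the width of the Ikaros hotspot.

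The littermate RelA lists, from other animals, also left nearly all of the 573 regions free. Littermate RelA overlapped 2 of them at 0 h, 0.349% (0.0423 to 1.26), 3 at 3 h, 0.524% (0.108 to 1.52), and 2 at 8 h, 0.349% (0.0423 to 1.26). Over all 853 resting Ikaros regions the shares were 4.69% at 0 h, 14.3% at 3 h and 7.74% at 8 h. At any time littermate RelA overlapped 6 of the 573 regions without wild-type RelA, 1.05% (0.385 to 2.27), against 128 of the 280 with it, 45.7% (39.8 to 51.7), and against 15.7% of all 853. The difference was -44.7 percentage points (Newcombe 95% interval -50.5 to -38.8). The densest of the 7 littermate hotspots involved, with a highest tag density of 37.6 at 3 h, lay on the region of chr6:3150599-3151075, which was 86 bp from an input hotspot, the nearest to input of any of the 573. The only region met at more than 1 time was at chr3:38928598-38928965, with littermate RelA at 0 and 8 h. Its Ikaros hotspot had a highest density of 6.15 at 0 h, against a median of 22.1 over the 573, and Ikaros was not listed there at 3 or 8 h. A further region of this kind, at chr7:108222759-108223500, met littermate RelA at 0 h and carried Ikaros at all 3 times, with z scores of 36.1, 55.3 and 33.9.

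In resting cells the 573 regions and those with RelA had similar strength and width. These values describe the regions as chosen. The z score, the authors' measure of enrichment within a library, had a median of 13.0 in regions without RelA (95% order-statistic interval 12.6 to 13.4, n = 573) and 13.1 in regions with RelA (12.7 to 13.5, n = 280). Width had a median of 486 bp (462 to 499) without RelA and 494.5 bp (473 to 511) with RelA. The ratio of highest to mean density, a measure of how peaked a hotspot is, had medians of 2.45 (2.43 to 2.48) and 2.40 (2.37 to 2.43) in the same order.

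Most regions without RelA were still listed for Ikaros after LPS. Ikaros was listed at 483 of the 573 at 3 h, 84.3% (81.1 to 87.2), where 88.7% of all 853 resting regions were, and at 524 at 8 h, 91.4% (88.9 to 93.6), where 93.9% of all 853 were. Both later lists held 467 of them, 81.5% (78.1 to 84.6), beside 86.9% over all 853. A further 57 of the 573 were listed at 8 h only, 9.95%, beside 7.03% of all 853. Another 16 were listed at 3 h only, 2.79% beside 1.88%, and 33 at neither time, 5.76% beside 4.22%. Hotspots that met the 573 regions made up 6.79% (6.22 to 7.40) of the 3 h Ikaros list and 3.79% (3.48 to 4.12) of the 8 h list. Listing required overlap with the resting hotspot, which bounds the shift of its centre. That shift had a median of 36.0 bp at 3 h and 39.5 bp at 8 h. For regions with RelA the medians were 45.0 and 51.0 bp.

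**Figure D1:**
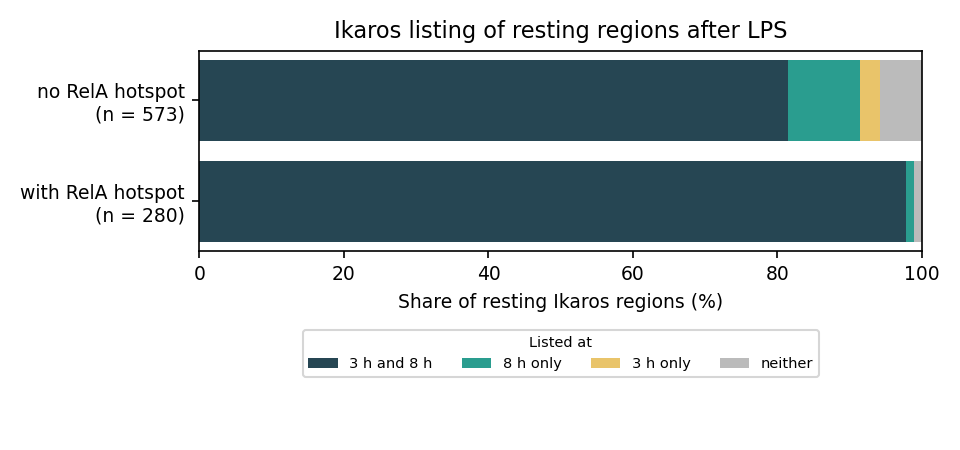
Shares (%) of resting Ikaros regions by the later Ikaros lists that held them, for the 573 regions without a RelA hotspot and the 280 with one, 1 library per time. Both later lists held 81.5% of regions without RelA and 97.9% of those with RelA, and neither list held 5.76% and 1.07%.

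Regions without RelA were listed less often after LPS than regions with RelA. At 3 h the shares were 84.3% without and 97.9% (95.4 to 99.2) with RelA, a difference of -13.6 percentage points (Newcombe 95% interval -17.0 to -9.88). At 8 h they were 91.4% without and 98.9% (96.9 to 99.8) with RelA, a difference of -7.48 points (-10.1 to -4.61). Within quintiles of 0 h z score the regions without RelA had the lower share in 5 of 5 at both times, with differences of -23.8 to -1.77 points at 3 h and -10.6 to -0.885 points at 8 h. The interval of the difference excluded 0 in the second and the third quintile alone at each time. In the strongest quintile nearly all were listed, 98.2% (93.8 to 99.8) of 113 without RelA and 100% (93.8 to 100) of 58 with RelA at 3 h. The difference depended on the rule of overlap. With centres within 200 bp it was -4.40 points (-9.31 to 1.02) at 3 h and +0.864 points (-3.96 to 6.20) at 8 h. The direction turned at both times under 1 rule. When each hotspot had to cover 50% of the other, the difference was +2.32 points (-4.22 to 9.10) at 3 h and +13.6 points (6.64 to 20.6) at 8 h. A hotspot more than 2 times as wide as the resting one cannot meet that rule, and at 8 h 135 of 524 listed regions without RelA, 25.8%, were at least 2 times as wide, against 127 of 277 with RelA, 45.8%.

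**Figure D2:**
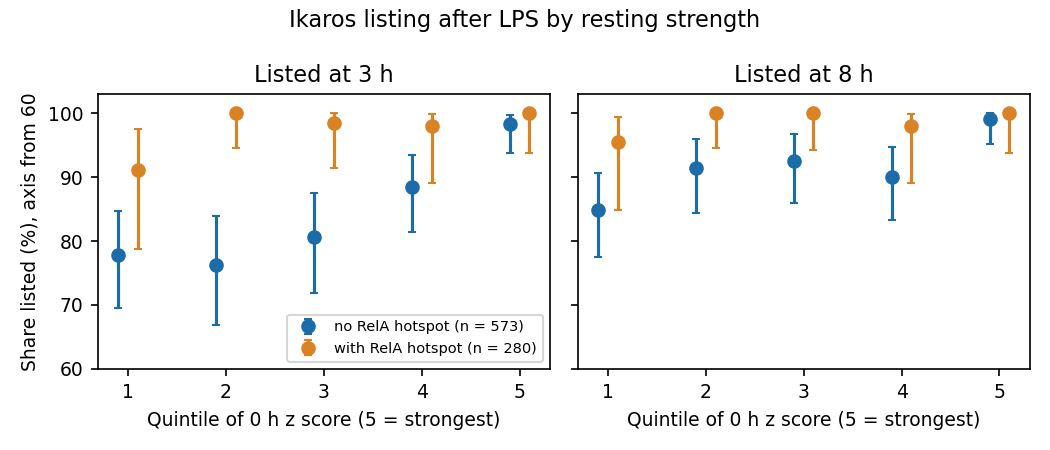
Share (%) of resting regions listed for Ikaros at 3 h (left) and 8 h (right) by quintile of 0 h z score, with exact 95% intervals over regions, for regions without and with a RelA hotspot. The vertical axis starts at 60%. Regions without RelA lie lower in each quintile, and the groups meet near 100% in the strongest.

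After LPS the regions without RelA took lower ranks than those with RelA. A strength percentile gives the rank by z score within the Ikaros list of that time, with 100 for the strongest. Regions without RelA had a median percentile of 49.9 (45.0 to 54.4) in resting cells, 83.1 (80.4 to 85.6) after 3 h and 89.4 (87.7 to 91.0) after 8 h, over those listed. Regions with RelA had 50.9 (45.96 to 55.6) in resting cells, 94.6 (93.6 to 95.6) after 3 h and 97.4 (96.7 to 98.0) after 8 h. Lists of unlike length do not share a scale, so the higher percentiles in the longer lists of 3 and 8 h show no change by themselves. With the 3 and 8 h lists cut to their 853 strongest hotspots, the medians without RelA were 58.9 at 3 h and 62.6 at 8 h over the 33.2% and 31.9% that remained listed.

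Ranked among the 741 resting regions listed at all 3 times, a ranking added after the data were seen, the 467 regions without RelA had a median percentile of 52.1 (46.8 to 57.4) in resting cells, 39.4 (34.8 to 43.0) after 3 h and 37.9 (34.1 to 42.4) after 8 h. The 274 with RelA had 48.0 (43.0 to 52.6), 68.1 (63.3 to 72.1) and 68.6 (63.4 to 73.0). In this ranking 174 of the 467 regions without RelA, 37.3% (32.9 to 41.8), stood higher at 8 h than at 0 h, against 192 of the 274 with RelA, 70.1% (64.3 to 75.4), and 49.4% of all 741. A rank within a fixed set is a relative measure, so places lost by one group are places gained by the other. Within quintiles of 0 h z score, the whole-list percentile without RelA was lower in 5 of 5, with differences of -16.1 to -2.67 at 3 h and -13.6 to -2.41 at 8 h.

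**Figure D3:**
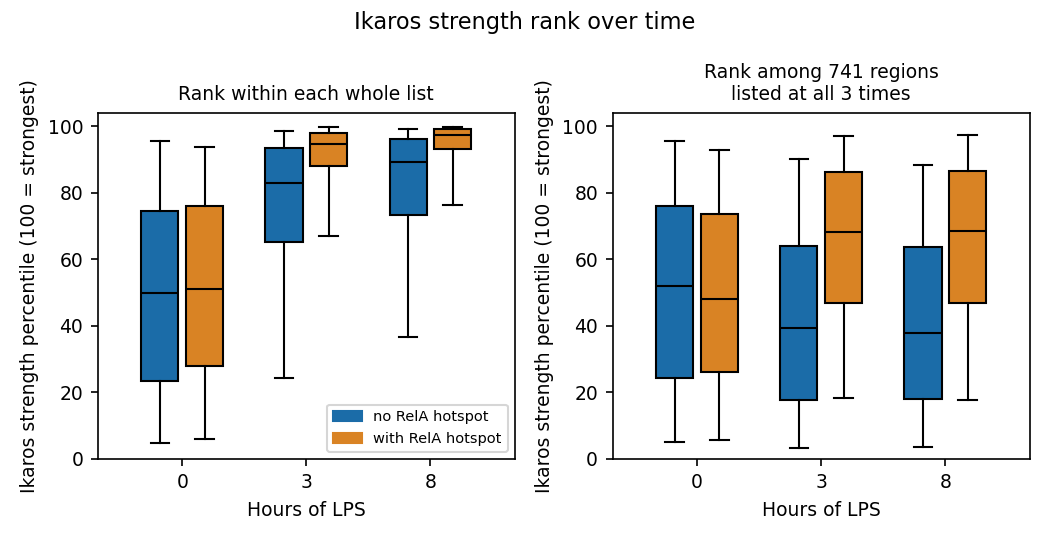
Ikaros strength percentile (100 = strongest) at 0, 3 and 8 h of LPS for regions without and with a RelA hotspot, within each whole list (left) and among the 741 regions listed at all 3 times (right). Boxes span the quartiles with the median as a line, and whiskers run from the 5th to the 95th percentile of regions. The groups share a median near 50 at 0 h, and on the right stand at 37.9 without RelA and 68.6 with RelA at 8 h.

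Among the 853 resting regions free of input, the strongest belonged to this class. The strongest hotspot deposited at 0 h, with a z score of 1265, was among the 51 on input. The highest z score in the 853 was 135. The 12 hotspots of highest z score among the 853 at 0 h all lacked RelA. This cut was taken from the data, as the first region with RelA came next. Of the 20, 50 and 100 strongest, 17, 38 and 70 lacked RelA, where 67.2% of all were without RelA. With input set aside, hotspots on these regions made up 6 of the 10 strongest Ikaros hotspots at 3 h and 5 of the 10 strongest at 8 h. Of the 100 strongest hotspots at 3 h, 26 lay on regions without RelA and 43 on the fewer regions with RelA, and of the 100 strongest at 8 h the counts were 30 without and 59 with RelA.

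The leading region, at chr10:11211605-11212153, had z scores of 135 at 0 h, 175 at 3 h and 161 at 8 h and ranked 1, 4 and 2. The next, at chr3:61962819-61963443, had z scores of 130, 172 and 158 and ranked 2, 5 and 3. A region at chr8:3754156-3754824 had 124, 176 and 144 and ranked 3, 3 and 4. These 3 regions thus kept a place among the first 5 in every list after input was set aside. The fourth, at chr13:113368245-113368750, ranked 4, 6 and 8, and the fifth, on chromosome 18, ranked 5, 7 and 6. The same 5 were also the strongest of the 573 at 3 h. They lay between 89337 and 1096528 bp from the nearest RelA hotspot. The chromosome 18 region lay 17360 bp from an input hotspot and the others between 997266 and 10552045 bp. The median distance to input over the 573 was 4013354 bp.

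These leading regions were wider than the others at 0 h and narrower at 3 and 8 h. The 12 strongest had a median width of 561.5 bp at 0 h, 568 bp at 3 h and 627.5 bp at 8 h. The other 512 regions without RelA listed at 8 h had 487, 654 and 737 bp, the 3 h value over the 455 of them listed then. The region on chromosome 10 was 548 bp wide at 0 h, 571 at 3 h and 549 at 8 h, and that on chromosome 3 was 624, 565 and 576 bp wide. On chromosome 13 the hotspot measured 505 bp at 0 h and 360 bp at both later times. Over the 12 strongest, the width at 8 h was a median of 0.987 times that at 0 h, between 0.713 and 1.31, and 6 of 12 were wider. Over the other 512 regions, the median ratio was 1.49 and 473 were wider. Both groups were parted by 0 h z score, at a cut taken from these data, so these values are a description. The ranks of the 12 strongest at 8 h ran from 2 to 251 of 13796, and those of the other 512 from 11 to 13175.

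**Figure D4:**
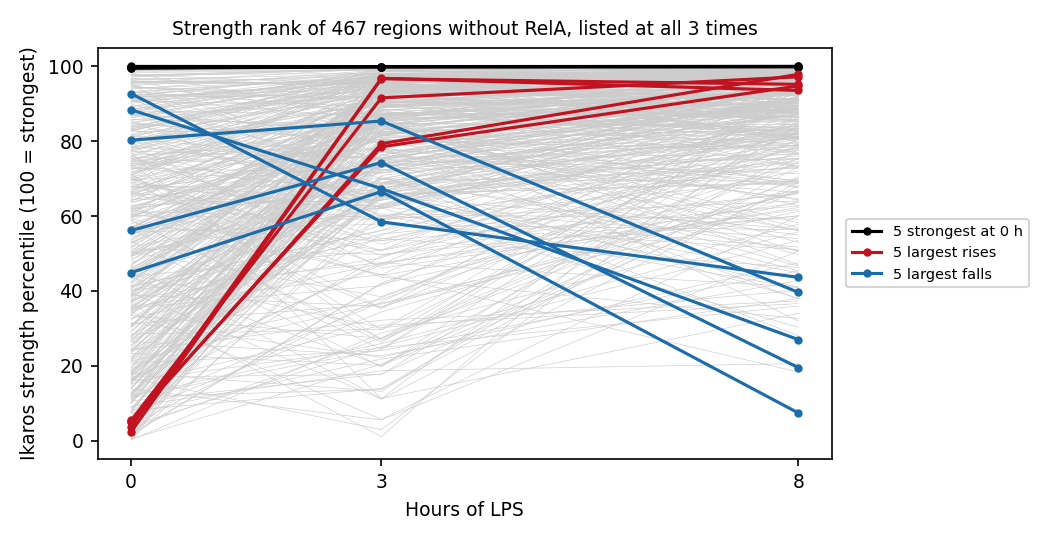
Ikaros strength percentile (100 = strongest) of the 467 regions without RelA that were listed at 0, 3 and 8 h of LPS, 1 grey line each. Black, red and blue lines mark the 5 strongest at 0 h, the 5 largest rises and the 5 largest falls between 0 and 8 h; the black lines stay near 100 while the red ones start between 2.34 and 5.39.

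Ikaros hotspots on regions without RelA were wider after LPS, though less so than on regions with RelA. Their width had a median of 486 bp at 0 h, 648 bp (638 to 666) at 3 h and 732 bp (714 to 750) at 8 h, while the median of all hotspots listed was 487, 533 and 565.5 bp. With RelA the medians were 494.5, 825 (804 to 852) and 910 bp (881 to 946). Region by region, the width at 3 h was a median of 1.29 times that at 0 h (1.24 to 1.32) without RelA and 1.70 times (1.62 to 1.80) with RelA. At 8 h the ratio was 1.48 (1.42 to 1.52) without RelA and 1.93 (1.81 to 2.05) with RelA. Of the 524 regions without RelA listed at 8 h, 479 were wider than at 0 h, 91.4% (88.7 to 93.7), beside 94.0% of all 801 resting regions listed then, and 135 were at least 2 times as wide. At 3 h, 394 of 483 were wider, 81.6% (77.8 to 84.9), beside 87.7% of all.

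Widening differed with resting strength. In the weakest quintile of 0 h z score the median ratio at 8 h was 2.31 without RelA and 2.90 with RelA, and in the strongest it was 1.20 and 1.49 in the same order. Regions without RelA had the lower ratio in 5 of 5 quintiles at both times. The median width without RelA minus that with RelA lay between -22.0 and 0 bp at 0 h and between -242 and -108 bp at 8 h over the quintiles. Width depends on the unstated threshold of the hotspot caller, and 20 of the 573 regions stood at the least width in the files, 251 bp, at 0 h. A ratio above 1 at weak regions is partly fixed by that floor.

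**Figure D5:**
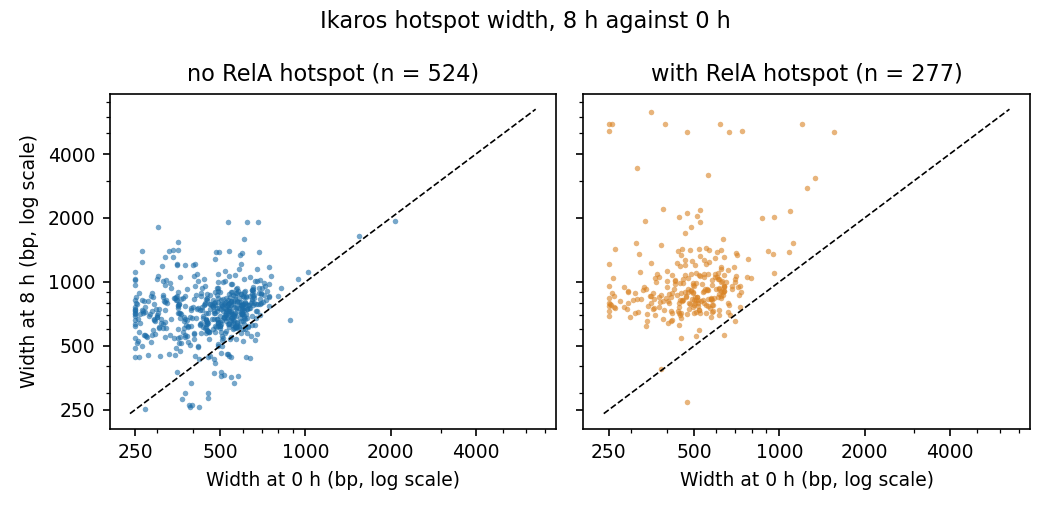
Width of the Ikaros hotspot at 8 h against 0 h (bp, both axes logarithmic), 1 point per resting region listed at 8 h, without RelA (left, n = 524) and with RelA (right, n = 277). The dashed line marks equal width; 479 of 524 and 274 of 277 points lie above it.

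The largest width ratios at 8 h lay at regions that were weak and narrow before LPS. A ratio to the 0 h width favours narrow starts, so the choice partly fixes this. The largest ratio was at chr10:116717601-116717902, which was 301 bp wide at 0 h, not listed at 3 h and 1815 bp wide at 8 h. The region at chr3:132755305-132755570 was 265, 1199 and 1392 bp wide at 0, 3 and 8 h, and that at chr10:127037191-127037455 was 264, 950 and 1237 bp wide. At the other end, at chr12:37542594-37543153 the hotspot was 559 bp wide at 0 h, 325 bp at 3 h and 333 bp at 8 h, the lowest ratio at 0.596. That at chr6:94776674-94777094 was 420, 388 and 259 bp wide, and that at chr5:17282240-17282816 was 576, 503 and 360 bp wide.

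The 5 largest rises in whole-list percentile from 0 to 8 h started low, which a choice by rise favours. Their 8 h percentiles ran from 93.6 to 97.9. The median was 81.3 in the weakest quintile without RelA and 89.4 over all 524 listed without RelA. Lists of unlike length share no scale, so these rises show no change by themselves. At chr17:46884272-46884525 Ikaros ranked 812 of 853 at 0 h, 1469 of 7109 at 3 h and 291 of 13796 at 8 h, with z scores of 10.1, 19.5 and 43.6. The region at chr4:66488472-66488723 ranked 808, 598 and 383 at the same times. The region at chr11:70067682-70067969 had ranks of 822, 234 and 661 and percentiles of 3.75, 96.7 and 95.2. That at chr2:172849773-172850038 had ranks of 834, 226 and 887 and percentiles of 2.34, 96.8 and 93.6. In both, the percentile was highest at 3 h. The region at chr13:56282805-56283056 had ranks of 809, 1527 and 719. Its percentiles of 5.28, 78.5 and 94.8 ran like those on chromosome 17, at 4.92, 79.4 and 97.9. The 5 regions were between 251 and 287 bp wide at 0 h.

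The 5 largest falls in whole-list percentile between 0 and 8 h began at places from rank 63 to rank 471 of 853. At chr11:11428977-11429596 Ikaros ranked 100 at 0 h, 2322 at 3 h and 10074 at 8 h, with z scores of 21.6, 16.4 and 11.8. At chr2:30545713-30546376 it ranked 63, 2954 and 7778, with z scores of 26.2, 14.8 and 13.6. A region at chr14:21748155-21748796 ranked 169, 1038 and 8334, with percentiles of 80.3, 85.4 and 39.6. The region at chrX:131447693-131448080, near the middle of the resting list with rank 471, had percentiles of 44.9, 66.5 and 7.36. That at chr1:138261278-138261731, rank 375 at 0 h, had percentiles of 56.2, 74.3 and 19.5. In the whole lists, whose lengths differ, 413 of the 467 regions without RelA had a higher percentile at 8 h than at 0 h, beside 91.9% of all 741, which shows no change by itself. In the ranking among the 741, 174 of the 467 stood higher at 8 h, as given above.

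Regions that left the lists were mostly weak before LPS. The 33 listed at neither later time had a median 0 h z score of 11.2 and a highest of 17.6, and a median width of 367 bp. The strongest were at chr19:5841270-5841938 (z 17.6), at chr3:38928598-38928965 (z 17.3) and at chr9:121544869-121545760 (z 15.9). The chromosome 19 region lay 58 bp from another region without RelA, at chr19:5841996-5842386. That neighbour was listed for Ikaros at 8 h and not at 3 h. Those listed at 3 h alone were led by chr9:109020579-109021119, with a z score of 19.4 at 0 h and 16.4 at 3 h. Next came chr2:29261318-29261873 (14.9 and 11.0) and chr1:174482633-174483249 (14.6 and 12.2).

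Regions absent at 3 h and listed at 8 h included a broad and strong one. At chr10:116712579-116714643 the hotspot was 2064 bp wide with a z score of 40.9 at 0 h, ranked 14 of 853, was not listed at 3 h, and was 1934 bp wide with a z score of 36.9 at 8 h. Another region without RelA, at chr10:116714782-116715326, lay 139 bp from it and was also listed at 8 h and not at 3 h. The next strongest listed at 8 h only were chr5:92708602-92709237, with z scores of 21.5 at 0 h and 31.1 at 8 h, and chr7:147281935-147282468, with 16.7 and 13.7.

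The 573 regions lay at widely varying distances from RelA. Regions at distance 0 were left out by the rule, and no background distance is given. The distance to the nearest wild-type RelA hotspot had a median of 75020 bp and quartiles of 19592 and 218554 bp, and 19 regions lay within 1000 bp. Listing did not follow distance in an order: at 3 h Ikaros was listed at 78.9% (54.4 to 93.9) of the 19 regions under 1000 bp away, 88.5% (79.2 to 94.6) of 78 from 1000 to under 10000 bp, 85.2% (79.9 to 89.5) of 229 from 10000 to under 100000 bp and 82.6% (77.3 to 87.1) of 247 farther away. At 8 h the shares were 94.7%, 94.9%, 93.0% and 88.7% in the same order, with overlapping intervals. Width ratios at 8 h had medians of 2.03, 1.55, 1.48 and 1.42. Resting strength moved with distance too, with median 0 h percentiles of 39.5, 43.1, 51.7 and 51.2 in the same order, and its part in the width ratios was not tested. Near RelA, the region at chr2:145713690-145714235 was 545 bp wide at 0 h and 981 bp at 8 h and was not listed at 3 h. At chr19:55368341-55369023, 57 bp from RelA, the widths were 682, 677 and 1913 bp at 0, 3 and 8 h. The third nearest, chr12:85559144-85559435, 202 bp away, was 291, 551 and 667 bp wide.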

How the data were processed

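The authors deposited 1 hotspot list per library. Per the submitters' processing notes the build is mm9 and CASAVA was among the tools. Reads were single-end, per the labels' protocols. The aligner, the hotspot caller, its threshold, any input subtraction and the coordinate base are unstated in the labels and headers, so positions are printed as deposited. The highest and mean tag density are a deposited signal of unstated scale. The deposited z score, per the file headers, is a score within its own library, used only for ranks and description. The deposited p-value equalled the two-sided normal tail of that score to within 0.00079 on the log10 scale and was not used further.

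The members and settings were chosen with earlier results of these data known. Overlap meant 1 bp or more. A region met by several later hotspots took the one of longest overlap. Named regions were the extremes by z score, percentile change, width ratio, later listing, distance to RelA and littermate RelA. No genome or annotation of this build was used, so no gene or sequence is given. Coordinates of the chromosome 18 region are not reported here. Alternatives concerned overlap, list length, strength floors, input, RelA distance, littermate lists and sex chromosomes. The overlap code was tested on simulated lists. Python 3.11.15, numpy 2.4.6, pandas 2.3.3, scipy 1.17.1, statsmodels 0.14.6 and matplotlib 3.10.9 were used.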

Additional observations from a re-analysis of the deposited data

How the results depend on the processing

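No test is attached to these values, so a value counts as moved when it leaves its 95% interval, and a count once it differs by more than 1.5 times. For the 14 results there were 145 alternatives: 101 stayed in place, 41 moved and 3 turned a difference round. Some of the 101 could not move. Cutting the 8 h list alone leaves every value of 0 and 3 h unchanged, and cutting both later lists leaves the 0 h percentile unchanged. With 50% reciprocal overlap, regions without RelA were listed in 69.1% at 3 h, 67.2% at 8 h and 58.5% at both, and their difference from regions with RelA was +2.32 and +13.6 points at 3 and 8 h. With centres within 200 bp, 85.9% were listed at 8 h and 75.2% at both times, with differences of -4.40 points at 3 h and +0.864 points at 8 h. A hotspot more than 2 times as wide as the resting one cannot meet the first rule, and for the second the cause was not tested. When the 8 h list was cut to as many hotspots as that of 3 h, 82.7% were listed at 8 h and 76.3% at both, the difference at 8 h was -15.1 points and the median percentile at 8 h 82.6. With both later lists cut to the length of the resting list, 33.2% were listed at 3 h, 31.9% at 8 h and 21.6% at both, with differences of -40.4 and -39.5 points, median percentiles of 58.9 and 62.6 and a width ratio of 1.34 at 3 h. Among the 286 members in the upper 50% by 0 h z score, 90.6%, 94.4% and 88.8% were listed at 3 h, 8 h and both, the difference at 3 h was -8.02 points, median percentiles at 0, 3 and 8 h were 74.6, 88.7 and 93.0, and width ratios were 1.15 and 1.30. Among the 361 of highest density 20 or more the shares were 89.8%, 94.7% and 87.0%, the difference at 3 h was -9.61 points, percentiles at 0 and 8 h were 67.2 and 91.3, and width ratios were 1.18 and 1.33. With input overlap ignored, littermate RelA at 3 h met 1.98%. With littermate hotspots of density 10 or more alone, it met 0% at 8 h. Ranked among regions listed at all 3 times, the percentiles at 3 and 8 h were 39.4 and 37.9. Leaving out regions within 1000 bp of RelA, regions with littermate RelA or the sex chromosomes, or not searching the RelA 0 h list, moved none of these results. No paired analysis was possible because replicate numbers are missing from the labels. With 1 library a group, leaving out a replicate was not an option. Depth is unknown, and with it the weakest binding each library could show.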

Other observations

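Regions without RelA had fewer gained Ikaros hotspots around them than regions with RelA. A hotspot of the 3 h list that met no resting hotspot lay within 10000 bp of 119 of the 573, 20.8% (17.5 to 24.3), and of 135 of the 280 with RelA, 48.2% (42.2 to 54.2). At 8 h the counts were 223, 38.9% (34.9 to 43.0), and 175, 62.5% (56.5 to 68.2). Together the groups made up all 853 resting regions, so the share over all 853 must lie between those of the groups at each time. Regions of both groups can share a neighbourhood, and these shares were not matched for strength.

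The share of resting regions without RelA ranged by chromosome from 56.2% (41.2 to 70.5) of 48 on chromosome 5 to 82.8% (64.2 to 94.2) of 29 on chromosome 19. Most regions without RelA stood alone, and 6 pairs of neighbours were under 2000 bp apart. In the pair on chromosome 7, the region at 52711927 to 52713469 (z 40.8) was listed for Ikaros at 3 and 8 h, while its neighbour at 52713851 to 52714735 (z 14.4) was listed at neither.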
